A study of Mus musculus with 7 samples.

Results

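The S100 proteins are small calcium-binding proteins, and 7 of the genes that encode them are described here across the leukocytes of the inflamed mouse central nervous system. The genes are S100a4, S100a6, S100a8, S100a9, S100a10, S100a11 and S100a13. They were taken by symbol, with earlier results of these data known, and are 7 of the 17 S100 rows and of the 27998 genes listed for all 7 libraries. All 7 lie on mouse chromosome 3 (build GRCm38, GENCODE annotation). S100a13 spans bases 90514435 to 90524581, S100a4 90603771 to 90606045, S100a6 90612882 to 90624181 and S100a8 90668978 to 90670035, and S100a9 lies on the opposite strand at 90692632 to 90695721. S100a11 (93520488 to 93526287) and S100a10 (93555080 to 93564643) lie farther along the same chromosome.

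S100 proteins bind calcium through paired EF-hand motifs and, as dimers, dock to partner proteins. S100A8 and S100A9 form calprotectin, a major cytosolic protein of neutrophils that is released in inflammation and is sensed through TLR4 and RAGE. S100A4 binds non-muscle myosin, S100A6 binds CacyBP, S100A10 does not need calcium to bind annexin A2 (Anxa2), S100A11 binds annexin A1 (Anxa1), and S100A13 takes part in the release of FGF1 and IL-1alpha. In neuroinflammation these genes are mainly known from infiltrating myeloid cells and activated T cells.

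Cells came from mice on the B6 background with experimental autoimmune encephalomyelitis, induced with MOG peptide and sampled at the disease peak. Wild-type mice (label Lag3wt) and mice deficient in the inhibitory receptor LAG3 (label Lag3Floxed, here Lag3KO) were used, and the labels name no Cre line. Beads enriched CD4 cells (WT_CD4 and Lag3KO_CD4, n = 2 libraries each) or CD45 cells (WT_CD45, n = 2, and Lag3KO_CD45, n = 1). The labels give 5 mice per group and not which mice entered a library, so p-values measure the spread between libraries, which may be technical. Lag3 itself gave 277, 103 and 296 UMIs in WT_CD4 1, WT_CD4 2 and WT_CD45 1 and 0 to 2 UMIs in the 3 Lag3KO libraries. The library labelled WT_CD45 2 held 4 Lag3 UMIs (0.259 CPM), against its label, and every genotype value from the CD45 libraries rests on that label. Depth ran from 4585251 to 18940186 UMIs and from 1428 to 2517 barcodes per library, and 0 to 12 barcodes were shared by any pair of libraries. Levels are counts per 1e6 UMIs of a class in a library (CPM), and each 3' tag counts 1 molecule whatever the length of the transcript. Classes were named from marker lists that hold no S100 gene, after clustering without the S100 genes, so each name means cells like that type.

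S100a8 and S100a9 are neighbours on opposite strands whose levels moved together across the classes, so their start regions are shown. Each run of 300 bases (RefSeq, build GRCm38.p6) covers 250 bases before and 50 after the annotated start, 5' to 3' on the strand of the gene. Capitals mark matches, on either strand, to TATAAA, to the C/EBP motif TTGCNNAA, to the PU.1 motif GAGGAAGT or to the AP-1 motif TGANTCA.

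S100a8 (chr3:90668821-90669120, plus strand): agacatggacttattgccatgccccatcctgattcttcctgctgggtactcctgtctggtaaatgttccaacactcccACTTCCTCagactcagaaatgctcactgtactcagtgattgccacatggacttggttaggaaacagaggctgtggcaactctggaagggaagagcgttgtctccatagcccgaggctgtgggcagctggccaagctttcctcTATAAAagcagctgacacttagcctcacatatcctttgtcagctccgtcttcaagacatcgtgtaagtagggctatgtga

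S100a9 (chr3:90695672-90695971, minus strand): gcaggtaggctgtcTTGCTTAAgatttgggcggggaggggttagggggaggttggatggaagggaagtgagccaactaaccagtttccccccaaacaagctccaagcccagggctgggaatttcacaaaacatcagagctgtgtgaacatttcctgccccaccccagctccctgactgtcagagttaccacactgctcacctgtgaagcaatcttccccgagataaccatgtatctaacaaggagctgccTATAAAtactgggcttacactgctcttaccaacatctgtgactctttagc

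TATAAA was found once in each, 30 bases before the annotated start of S100a8 and at the annotated start of S100a9. TATAAA occurred in 13.6% of the 32851 start regions in the table. The PU.1 motif occurred in S100a8 (3.20% of all regions) and the C/EBP motif in S100a9 (10.8%), and the AP-1 motif (7.81%) in neither. S100a11 held 2 AP-1 matches, S100a4 held 1 TATAAA and 1 PU.1 match, and S100a6 and S100a13 held none of the 4 motifs. These are matches of letters in one window and were not tested as binding sites.

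S100a8 and S100a9 were by far highest in neutrophils. In the CD4 libraries the S100a8 level of neutrophils was 140593, 125043, 103851 and 94507 CPM in WT_CD4 1, WT_CD4 2, Lag3KO_CD4 1 and Lag3KO_CD4 2. The S100a9 level was 77051, 70897, 68556 and 59401 CPM in the same order. The macrophages of the same libraries were at 35.5 to 557.0 CPM of S100a8, so the ranges did not overlap. The CD45 libraries held 15, 5 and 9 neutrophil barcodes, too few for a test, with S100a8 at 117296, 121263 and 144339 CPM.

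**Figure D1:**
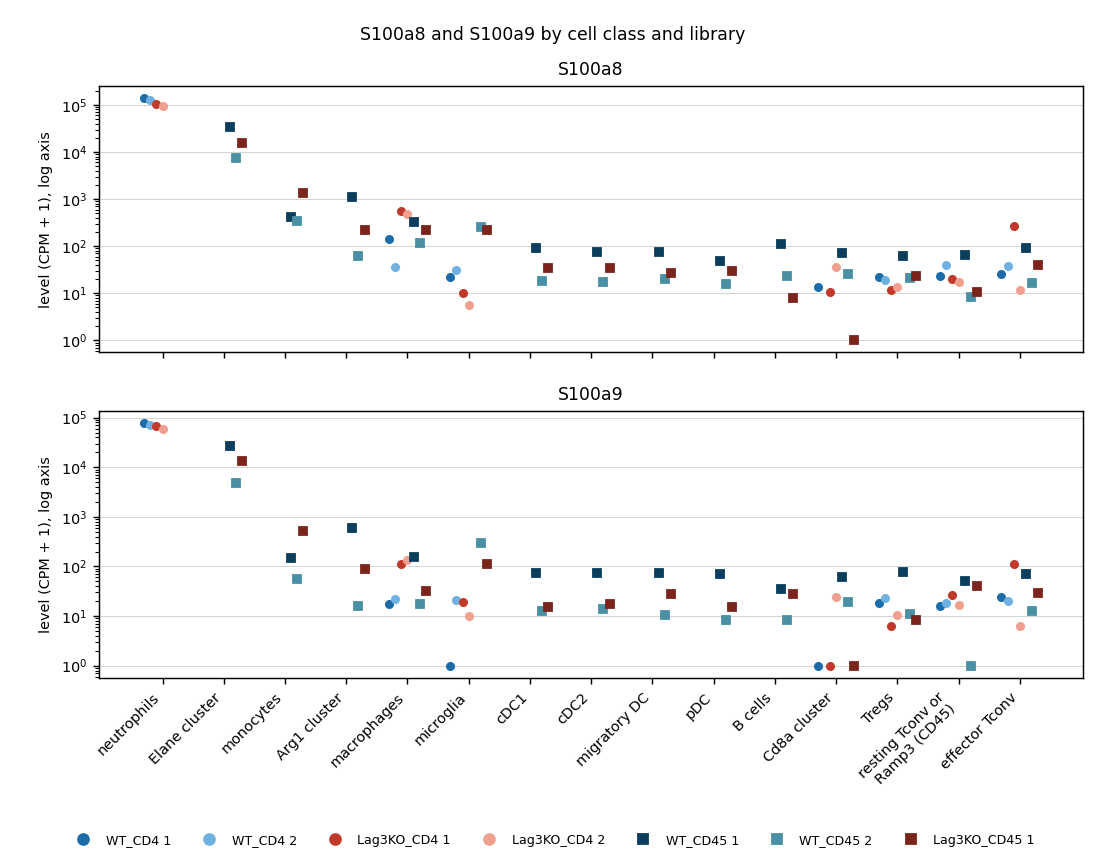
Levels of S100a8 (top) and S100a9 (bottom) as CPM + 1 on a log axis, 1 point per library with at least 20 barcodes of a class, circles for CD4 and squares for CD45 libraries. Neutrophils of the 4 CD4 libraries sit between 94507 and 140593 CPM of S100a8, and the Elane cluster of the CD45 libraries between 7376 and 33603 CPM.

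Neutrophils were compared with macrophages of the CD4 libraries, a cluster led by Saa3, Lyz2, Chil3, Arg1 and Spp1. By edgeR's quasi-likelihood test with Benjamini-Hochberg adjustment over all genes, 6 of the 7 members differed, where 34.1% of 7104 tested genes did. S100a8 was higher by 8.67 ± 0.79 (log2 ± SE, adjusted p = 1.5e-13) and S100a9 by 10.01 ± 0.66 (adjusted p = 1e-18). S100a11 was higher by 2.51 ± 0.15 and S100a6 by 1.52 ± 0.15 on the log2 scale. S100a4 was lower by 4.57 and S100a10 by 4.56 on that scale, from 1 to 2 and 0 to 5 UMIs per library in neutrophils. The median of all tested genes was -0.54 in this comparison, and -0.32 with the size factors of DESeq2 in edgeR. The S100a4 call ended with classes set from marker UMIs of each barcode in place of clusters (-1.62, adjusted p = 0.24). S100a13 did not pass the test (-0.04 ± 0.21, adjusted p = 0.93). Of the 10 tested annexin and intracellular partners, 4 were higher and 4 lower in neutrophils. Anxa1 was higher by 2.82 ± 0.20 and Anxa11 by 2.85 ± 0.32 on the log2 scale, while Anxa5 (-4.02 ± 0.46) and Ahnak (-5.12 ± 0.65), a scaffold bound by S100A10 and Anxa2, were lower. Cebpe, a transcription factor of granulocyte maturation, was higher by 4.99 ± 0.74 (adjusted p = 6.5e-07).

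The neutrophils of the CD4 libraries fell into a pair of clusters. One was led by the granule genes Ngp, Retnlg and Camp (10 to 20 barcodes per library), the other by Cxcl2, Lrg1 and Il1b (37 to 62 barcodes). S100a8 was at 208900, 238600, 228900 and 228900 CPM in the Ngp cluster and 44230, 45690, 31960 and 25110 CPM in the Cxcl2 cluster. S100a9 was at 113700 to 130900 CPM against 22500 to 32750 CPM. S100a6 (6732 to 10215 against 1323 to 2756 CPM) and S100a11 (7962 to 10947 against 3511 to 5406 CPM) were ordered the same way without overlap. These genes were left out of the clustering, but the clusters were drawn on genes of the same cells, so no test was made between them.

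**Figure D2:**
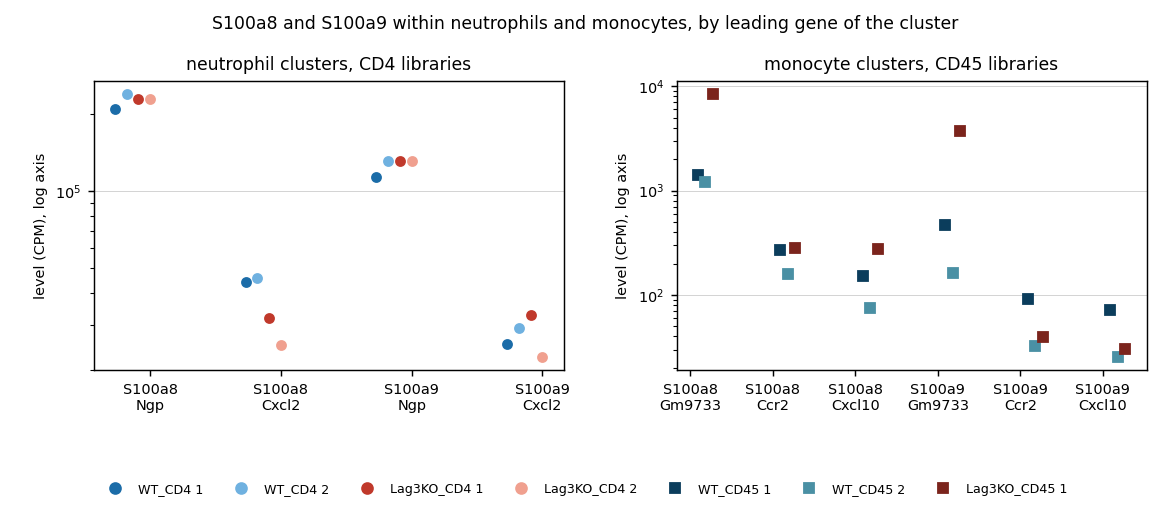
S100a8 and S100a9 (CPM, log axis) in the neutrophil clusters of the 4 CD4 libraries (left) and the monocyte clusters of the 3 CD45 libraries (right), 1 point per library, each cluster named by its leading gene. The Ngp cluster lies above the Cxcl2 cluster in all 4 libraries, and Lag3KO_CD45 1 is highest in the Gm9733 cluster, at 8381 CPM of S100a8, of which 5 barcodes held 91.7%.

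The CD45 libraries held a cluster led by Elane, Camp, Ngp and Ctsg, granule genes of granulocyte precursors, which stayed unnamed. This cluster scored highest on the cycling marker list (4.318, with 7 of its markers detected) and next on the neutrophil list (3.15). Its S100a8 level was 33603, 7376 and 15810 CPM in WT_CD45 1, the library labelled WT_CD45 2 and Lag3KO_CD45 1, from 39, 38 and 25 barcodes. A few barcodes carried most of it, with 76.1%, 97.6% and 98.2% of the S100a8 UMIs in the top 5. The median barcode had 4, 0.5 and 2 of these UMIs. S100a4 (544.8 to 1005 CPM) and S100a10 (849.6 to 989.6 CPM), near 0 in the neutrophils of the CD4 libraries, were present in the sum of this cluster. Whether the barcodes with granule genes carried them was not tested.

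Monocytes of the CD45 libraries carried S100a4, S100a6, S100a10 and S100a11 at higher levels than the macrophage cluster of those libraries. The macrophages of the CD4 libraries reached 985.9 CPM of S100a10 and 1641 CPM of S100a11, within or above the ranges of these monocytes (735.3 to 897.6 and 1261 to 1537 CPM). S100a4 was at 1193, 1422 and 1263 CPM in monocytes and 148.4, 183.7 and 158.0 CPM in macrophages of the same libraries, and S100a6 at 2688, 2329 and 2938 against 784.6, 571.2 and 989.5 CPM. All 7 members were lower in this macrophage cluster, led by Ttr, Gpnmb and Apoe, where 24.7% of 6963 genes differed. S100a4 fell by 2.85 (SE 0.15, adjusted p = 1.4e-23, edgeR) and S100a6 by 1.66 (SE 0.16, adjusted p = 6.5e-13) on the log2 scale. The summed S100a8 (-1.66 ± 0.29) and S100a9 (-1.67 ± 0.39) were lower too, but a few barcodes made the monocyte sum. The top 5 barcodes held 52.4%, 72.6% and 75.0% of the S100a8 UMIs of monocytes in WT_CD45 1, the library labelled WT_CD45 2 and Lag3KO_CD45 1, and 50%, 16.4% and 35.2% of monocytes had any S100a8 UMI. More macrophages did, 76.2%, 47.6% and 66.4% in the same order. Barcodes under 1000 UMIs were then left out and the others thinned to 1000 UMIs. The shares were 12.2%, 4.7% and 12.2% of monocytes and 22.5%, 8.6% and 24.2% of macrophages. The unthinned shares of both classes ranked these libraries as the whole-library S100a8 level did. A cluster led by Irg1 and Arg1 (Arg1 cluster) scored 2.135 on the macrophage and 2.057 on the monocyte list, stayed unnamed and was not in the fit. Its S100a8 level was 1099, 59.8 and 223 CPM in the same order of libraries, against 409.5, 341.6 and 1332 CPM in monocytes. Of its barcodes 68%, 28.8% and 56.0% had an S100a8 UMI. In WT_CD45 1, 57.9% of cDC1 and 38.4% of cDC2 had an S100a8 UMI too, unthinned. The part of RNA from outside the cells in these shares was not tested. The S100a9 call ended without Lag3KO_CD45 1 (-0.22, adjusted p = 0.46). S100a13 was the least changed (-0.41 ± 0.14, adjusted p = 0.021), and its call ended without either library labelled WT_CD45 (adjusted p = 0.059 and 0.36). Anxa2, the partner of S100A10, was also lower in macrophages (-1.36 ± 0.16), as was Anxa1 (-0.75 ± 0.15).

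Within monocytes, S100a8 was uneven. In the cluster led by Gm9733, Tppp3 and Ifitm6 it was at 1408, 1212 and 8381 CPM in WT_CD45 1, the library labelled WT_CD45 2 and Lag3KO_CD45 1. The top 5 of its 78, 83 and 64 barcodes held 79.6%, 87.9% and 91.7% of these UMIs, and the median barcode had 1, 0 and 0. In the Ccr2 cluster it was at 266.9, 160.2 and 280.3 CPM, and in the Cxcl10 cluster, led by interferon-response genes, at 152.8, 74.8 and 277.5 CPM. S100a4 was also highest in the Gm9733 cluster, at 2195, 2877 and 2054 CPM against 779.9 to 921.3 CPM in the Ccr2 cluster. The ratio of S100a8 to S100a9 UMIs was 2.83, 6.16 and 2.58 in monocytes, above the 1.26 to 1.82 of neutrophils in all 7 libraries.

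Microglia, the resident macrophages of the brain, nearly lacked most members in the CD4 libraries. S100a4 was at 0 to 13.7 CPM, S100a6 at 9.3 to 91.3, S100a10 at 9.3 to 68.5 and S100a11 at 0 to 82.2 CPM in the 4 libraries, whereas S100a13 was at 106.7 to 144.5 CPM. Against the macrophages of these libraries 6 of 7 members were lower, where 30% of genes differed. The differences were -6.05 ± 0.38 for S100a4, -5.53 ± 0.26 for S100a6, -5.36 ± 0.26 for S100a11, -4.60 ± 0.25 for S100a10 and -0.99 ± 0.19 for S100a13 (log2 ± SE, adjusted p at most 3.9e-05, edgeR). The S100a8 call (-5.02 ± 1.47, adjusted p = 0.0060) ended with edgeR's robust prior (adjusted p = 0.089) and turned to 0.38 with classes set from marker UMIs, where the S100a13 call ended too (-0.45, adjusted p = 0.36). The median of all tested genes was 0.03 here and 0.23 with the size factors of DESeq2. Anxa1 (-9.32 ± 1.01), Anxa2 (-3.98 ± 0.25) and Ahnak (-6.23 ± 0.55) were lower as well. Microglia of the CD45 libraries held more of these genes, with S100a6 at 687.6, 614.3 and 999.6 CPM in 16, 28 and 80 barcodes, and their summed level of 8 monocyte markers was 4170 CPM against 226.1 CPM in microglia of the CD4 libraries. The part of those markers in the difference was not tested. In the CD45 libraries 3 members differed between microglia and macrophages (14.4% of genes), with S100a10 (-0.68 ± 0.16) and S100a11 (-0.66 ± 0.14) lower and S100a4 higher (0.68 ± 0.21, adjusted p = 0.018). The S100a4 call ended with DESeq2 (adjusted p = 0.065) and with the robust prior (adjusted p = 0.10), and the S100a10 call with mixed barcodes kept (-0.20, adjusted p = 0.30).

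Among dendritic cells, S100a4 separated the subsets most. It was at 1598, 2030 and 1625 CPM in cDC2, 854.4, 1438 and 665.7 CPM in migratory dendritic cells, 154.0, 175.7 and 169.3 CPM in cDC1 and 83.1, 44.9 and 61.0 CPM in plasmacytoid dendritic cells. No pair of neighbours in that order overlapped. S100a11 stayed near 1841 to 1914 CPM in cDC2 and 1302 to 1917 CPM in cDC1, but was at 332.4 to 386.6 CPM in plasmacytoid dendritic cells.

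**Figure D3:**
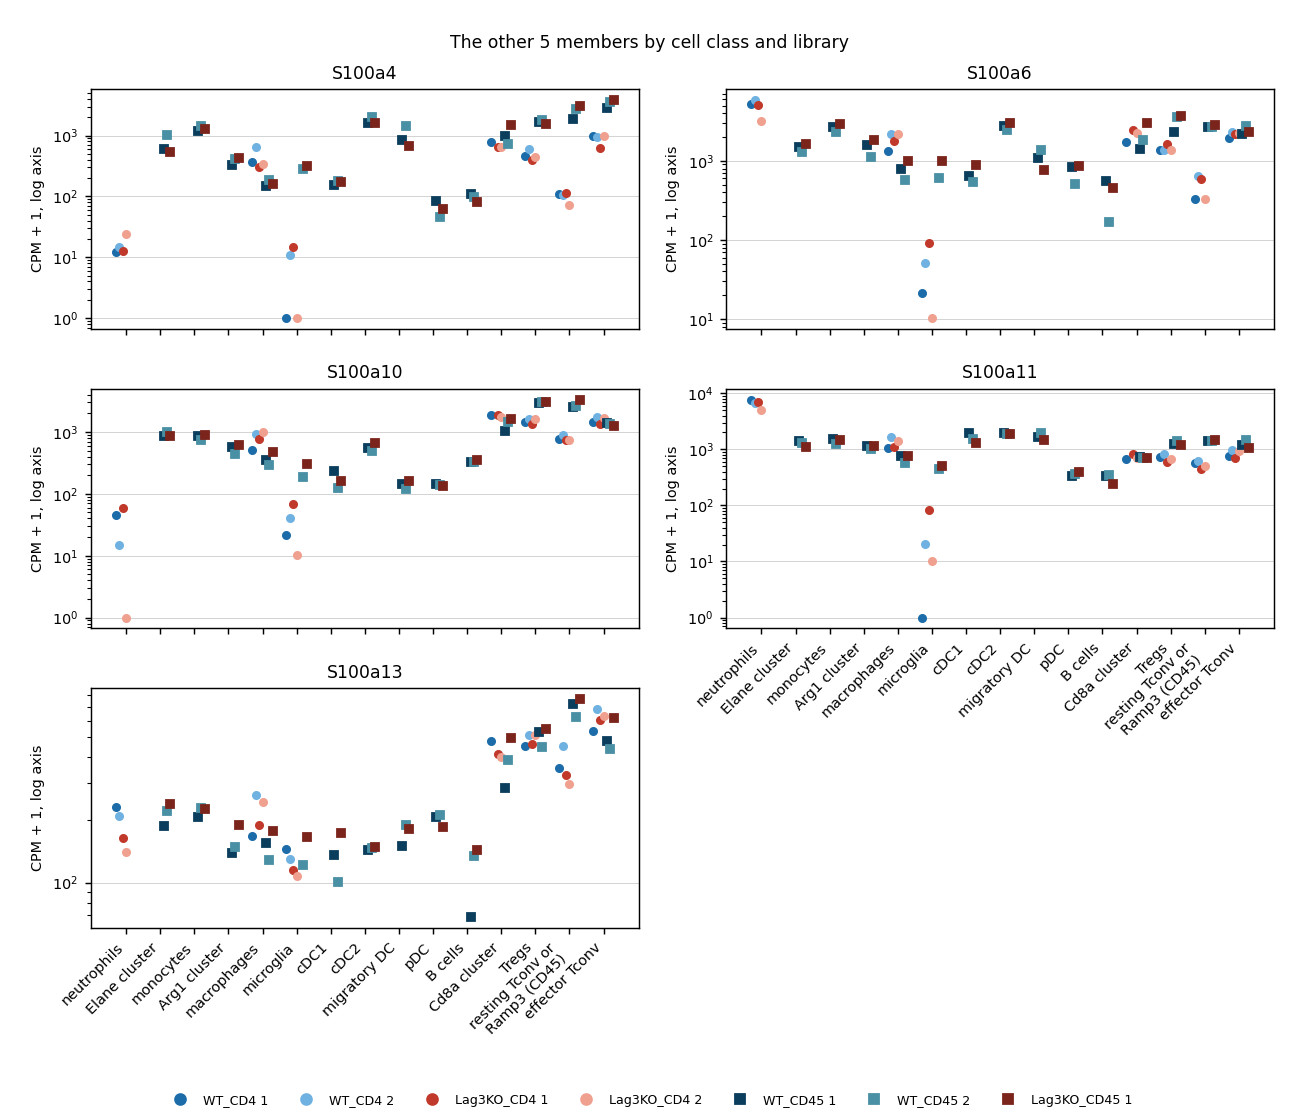
Levels of S100a4, S100a6, S100a10, S100a11 and S100a13 as CPM + 1 on a log axis by class, 1 point per library with at least 20 barcodes, circles for CD4 and squares for CD45 libraries. Microglia of the CD4 libraries sit at 0 to 91.3 CPM for all of these but S100a13, and cDC2 at 1598 to 2030 CPM of S100a4.

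In cDC1 against cDC2, 3 members were lower (13.2% of genes differed): S100a4 by -3.40 ± 0.17, S100a6 by -2.04 ± 0.17 and S100a10 by -1.70 ± 0.14 (log2 ± SE, adjusted p at most 1.8e-14, edgeR). The S100a10 call ended with classes set from marker UMIs of each barcode (-0.36, adjusted p = 0.13). In plasmacytoid dendritic cells 4 were lower than in cDC2 (34.7% of genes): S100a4 (-4.96 ± 0.22), S100a11 (-2.56 ± 0.12), S100a10 (-2.24 ± 0.17) and S100a6 (-2.09 ± 0.18). Anxa2 (-2.73 ± 0.21) and Anxa1 (-6.67 ± 0.57) were lower there too, among 6 of 10 tested annexin and intracellular partners. Migratory dendritic cells, which carry antigen towards lymph nodes, had lower S100a10 (-1.83 ± 0.16), S100a6 (-1.20 ± 0.17) and S100a4 (-0.70 ± 0.14), 3 of 7 members where 37.8% of genes differed. S100a11 did not differ beyond its error there (0.00 ± 0.10), and S100a13 (0.39 ± 0.16, adjusted p = 0.053) passed the test with the robust prior (adjusted p = 0.042) but not with the default.

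Against monocytes, cDC2 differed in 6 of 7 members (27.8% of genes). S100a8 was lower by -4.22 ± 0.35 (adjusted p = 1.2e-15) and S100a9 by -2.73 ± 0.43, and S100a13 (-0.62 ± 0.14) and S100a10 (-0.57 ± 0.11) were lower by less. As in the comparison with macrophages, a few barcodes made most of the monocyte sum of S100a8. Without thinning, 50%, 16.4% and 35.2% of monocytes had an S100a8 UMI in WT_CD45 1, the library labelled WT_CD45 2 and Lag3KO_CD45 1. The shares of cDC2 were 38.4%, 8.6% and 16.6% in the same order. S100a11 was higher (0.39 ± 0.09, adjusted p = 0.00083), a call that ended without the library labelled WT_CD45 2 (adjusted p = 0.086). S100a4 was higher by 0.41 ± 0.12, a call that ended with DESeq2 (adjusted p = 0.19), with the robust prior (adjusted p = 0.055) and without either library labelled WT_CD45 (adjusted p = 0.076 and 0.088). Cebpb (-2.73 ± 0.21) and Cebpa (-1.49 ± 0.20), myeloid transcription factors, were lower in cDC2.

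In T cells, S100a8 and S100a9 were low apart from single barcodes. The S100a8 level of Tregs was 10.5 to 21.5 CPM in the CD4 libraries and 61.2, 20.1 and 22.4 CPM in WT_CD45 1, the library labelled WT_CD45 2 and Lag3KO_CD45 1. The 3 CD45 libraries had the same order in cDC1, cDC2, migratory and plasmacytoid dendritic cells and effector Tconv, and whole-library S100a8 ranked likewise, at 2235, 659.5 and 1156 CPM. B cells (109.4, 22.1 and 6.8 CPM) and the Cd8a and Cd8b1 cluster (71.2, 24.2 and 0 CPM) were again highest in WT_CD45 1 but had the other libraries in the opposite order. Some of these orders rest on few S100a8 UMIs. Effector Tconv and B cells of WT_CD45 1 held 13 each, cDC1 of Lag3KO_CD45 1 held 14 and cDC2 of the library labelled WT_CD45 2 held 19. After thinning to 1000 UMIs, 1.0% to 2.1% of Tregs of the CD4 libraries had an S100a8 UMI (2.6% to 5.9% unthinned, median depth 2362 to 3126 UMIs), against 86.1% to 96.8% of neutrophils. Barcodes under 1000 UMIs were left out of these thinned shares. Neutrophils had median depths of 1020, 1200, 858 and 1142 UMIs in WT_CD4 1, WT_CD4 2, Lag3KO_CD4 1 and Lag3KO_CD4 2, so many of them were left out. Effector Tconv of Lag3KO_CD4 1 stood apart at 262.9 CPM, where the other CD4 libraries had 10.7 to 36.5 CPM. There 1 barcode held 359 of 371 S100a8 UMIs and 51 UMIs of the neutrophil marker list, and the level without it was 8.53 CPM. Cycling T cells of WT_CD4 2 stood at 4281 CPM, of which 1 barcode held 1151 of 1159 UMIs.

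S100a4 and S100a6 rose from resting conventional CD4 T cells (Tconv) to Tregs to effector Tconv in the CD4 libraries. S100a4 was at 110.4, 103.9, 113.1 and 72.0 CPM in resting Tconv of WT_CD4 1, WT_CD4 2, Lag3KO_CD4 1 and Lag3KO_CD4 2. It was at 454.2, 602.7, 393.6 and 436.1 CPM in Tregs and at 964.5, 956.0, 617.3 and 989.0 CPM in effector Tconv. The ranges of the 3 subsets did not overlap. After thinning to 1000 UMIs, 4.4% to 7.6% of resting Tconv, 27% to 34.5% of Tregs and 39.7% to 58.0% of effector Tconv had an S100a4 UMI (9.1% to 14.8%, 43.9% to 60.7% and 65.6% to 77.0% unthinned), against 0% to 4.5% of neutrophils with at least 1000 UMIs.

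**Figure D4:**
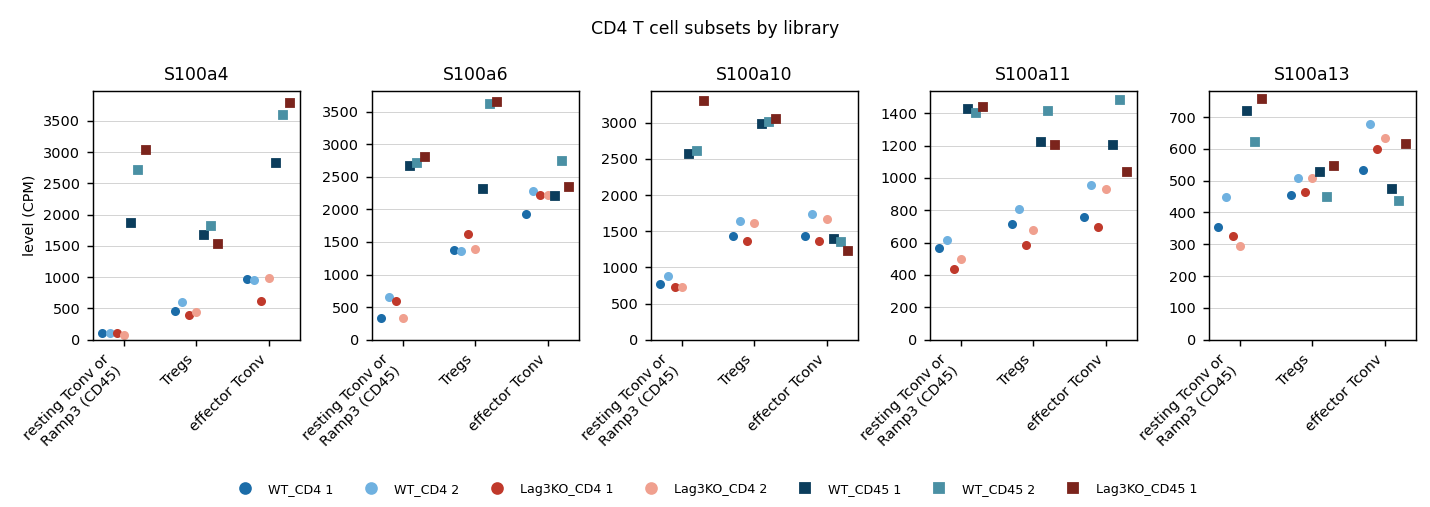
Levels (CPM, linear axis from 0) of 5 members in resting Tconv (CD4 libraries) or the Ramp3 cluster (CD45 libraries), Tregs and effector Tconv, 1 point per library, circles for CD4 and squares for CD45 libraries. In the CD4 libraries S100a4 is at 72.0 to 113.1 CPM in resting Tconv and 617.3 to 989.0 CPM in effector Tconv, and the Ramp3 cluster of the CD45 libraries is at 1868 to 3033 CPM.

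In the CD4 libraries 5 members were higher in effector than in resting Tconv, where 22.5% of 7660 genes differed. The differences were 3.11 ± 0.15 for S100a4 (adjusted p = 3.3e-23), 2.20 ± 0.11 for S100a6 (1.8e-22), 0.93 ± 0.08 for S100a10, 0.72 ± 0.10 for S100a13 and 0.58 ± 0.09 for S100a11 (log2 ± SE, edgeR). Of 9 tested annexin and intracellular partners 5 were higher and 0 lower, among them Anxa2 (2.51 ± 0.16), Ahnak (2.04 ± 0.20) and Anxa1 (4.74 ± 0.62). Tregs exceeded resting Tconv in the same 5 members (10.5% of genes), by 2.16 ± 0.15 for S100a4, 1.55 ± 0.11 for S100a6, 0.83 ± 0.08 for S100a10, 0.32 ± 0.10 for S100a13 and 0.26 ± 0.09 for S100a11. The S100a11 call (adjusted p = 0.042) ended without any 1 of the 4 libraries. The S100a13 call (adjusted p = 0.025) ended without WT_CD4 1, Lag3KO_CD4 1 or Lag3KO_CD4 2. With classes set from marker UMIs, the S100a10 and S100a13 differences of Tregs (adjusted p = 0.40 and 0.89) and the S100a11 difference of effector Tconv (adjusted p = 0.28) did not pass, and the S100a11 difference of Tregs turned to -0.06. Against effector Tconv, Tregs were lower in 5 members (24.8% of genes): S100a4 (-0.96 ± 0.09), S100a6 (-0.65 ± 0.09), S100a13 (-0.40 ± 0.08), S100a11 (-0.32 ± 0.07) and S100a8. The S100a8 value (-2.76 ± 0.90, adjusted p = 0.019) rested on the barcode described above and was -0.41 (adjusted p = 0.80) without Lag3KO_CD4 1. It was not called with the robust prior (adjusted p = 0.26), and it turned to 4.73 (adjusted p = 1.4e-07) with classes set from marker UMIs. The S100a6 call ended with those classes (-0.21, adjusted p = 0.15).

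The CD45 libraries held no CD4 T cell cluster led by the same genes (Igfbp4, Ccr7, Dapl1) as the resting Tconv of the CD4 libraries. The cluster that passed the score of the resting marker list, and that entered the fits in their place, was led by Ramp3, Slamf6 and S1pr1, had 1 marker of that list among its top 10 genes and Il22, a cytokine of effector T cells, among them too. It is called the Ramp3 cluster here. Its S100a4 level was 1868, 2710 and 3033 CPM and its S100a10 level 2575, 2614 and 3308 CPM. A cluster of the CD4 libraries that was also led by Ramp3 and Il22 was not counted as resting, and had S100a4 at 369.8, 371.8, 382.8 and 252.2 CPM. The fits that follow between this cluster and other subsets, and those over both sorts, therefore hold unlike clusters under 1 name. Effector Tconv were unlike between the sorts too. In the CD4 libraries they joined a cluster led by Ifitm2 and Cxcr6 (1037 barcodes) with another led by Ccl1 and Il2 (323 barcodes). In the CD45 libraries they were a single cluster led by Ccl1 and Nrgn (144 barcodes), with 0 effector markers among its top 10 genes. The sort and anything else that differed between the CD4 and CD45 preparations cannot be told apart. Effector Tconv were lower than the Ramp3 cluster in S100a10 (-1.16 ± 0.12, adjusted p = 3.6e-09) and S100a13 (-0.53 ± 0.16, adjusted p = 0.018), 2 of 7 members where 15.7% of genes differed. The S100a13 call ended without any 1 of the 3 libraries. The difference between sorts in this contrast (effector Tconv minus the Ramp3 cluster against effector minus resting Tconv) passed the test for 5 members (4.47% of genes), from -2.71 ± 0.23 for S100a4 to -0.78 ± 0.14 for S100a11. Tregs of the CD45 libraries had lower S100a4 (-1.01 ± 0.15) and higher S100a10 (1.19 ± 0.12) than effector Tconv, 2 of 7 where 15.4% of genes differed, and neither call held with classes set from marker UMIs (adjusted p = 0.21 and 0.92). The difference between sorts in that contrast passed for S100a6 (1.03 ± 0.18) and S100a10 (1.28 ± 0.13), where 4.09% of genes did, and for neither with those classes (adjusted p = 0.95 and 0.82). With all 7 libraries in 1 fit, where resting Tconv and the Ramp3 cluster were pooled as 1 class, effector Tconv exceeded them in S100a4 (1.28 ± 0.30) and S100a6 (0.98 ± 0.24), 2 of 7 where 27.1% of genes differed. Tregs exceeded them in S100a6 alone (0.73 ± 0.24, adjusted p = 0.031; 12.6% of genes), a call that ended with the robust prior (adjusted p = 0.087) and without any 1 of the CD4 libraries. Tregs were below effector Tconv in S100a4 alone (-0.96 ± 0.28; 25.1% of genes).

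B cells were low in most members, with S100a4 at 109.4, 95.8 and 81.0 CPM and S100a11 at 328.3, 346.2 and 243.1 CPM. Effector Tconv of the same libraries exceeded them in 5 of 7 members (21.1% of genes), by 4.79 ± 0.25 for S100a4, 2.29 ± 0.25 for S100a6, 1.74 ± 0.22 for S100a13, 1.67 ± 0.17 for S100a11 and 1.61 ± 0.18 for S100a10 (log2 ± SE, adjusted p at most 3.4e-09, edgeR). A cluster marked by Cd163l1 and Blk had the highest S100a6 and S100a10 among classes with at least 20 barcodes in those libraries, at 7407 and 6559 CPM of S100a6 in WT_CD45 1 and Lag3KO_CD45 1 (33 and 53 barcodes). S100a13 was higher in T cells, at 437.4 to 758.1 CPM in Tregs, effector Tconv and the Ramp3 cluster of the CD45 libraries and 67.4 to 141.8 CPM in B cells.

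Genotype was compared as Lag3KO minus WT. In Tregs 0 of 7 members differed over both sorts (0.165% of 7263 genes), in the CD4 libraries (0.223%) or in the difference between sorts (0.0372%), and without adjustment 279, 329 and 425 genes had p under 0.05. In Tconv 0 of 7 differed in the same fits (0%, 0.0319% and 0% of genes, with 303, 274 and 479 genes under 0.05 unadjusted). S100a4 was -0.29 ± 0.12 in Tregs and -0.02 ± 0.13 in Tconv over both sorts, and S100a10 -0.02 ± 0.10 and 0.07 ± 0.10. DESeq2 also called 0 of 7 in each of these fits. With no filter on low counts, edgeR called 2 members in Tconv over both sorts and 2 in Tconv of the CD4 libraries. In the CD4 libraries alone, 0 of 5 members tested in neutrophils (0.189% of genes) and 0 of 1 in microglia (0.124%) were called, and 84 and 172 genes had p under 0.05 unadjusted. Macrophages (0.207%) had S100a8 (2.38 ± 0.37, adjusted p = 0.0097) and S100a9 (2.67 ± 0.47, adjusted p = 0.022) higher in Lag3KO, at 142.1 and 35.5 CPM of S100a8 in WT and 557.0 and 479.3 CPM in Lag3KO. In Lag3KO_CD4 1 and Lag3KO_CD4 2, 1 barcode held 48.0% and 42.9% of these S100a8 UMIs, and 1 barcode held 69.2% and 76.7% of the S100a9 UMIs. Without that top barcode S100a9 was at 34.5 and 32.3 CPM, against 16.7 and 21.3 CPM in WT_CD4 1 and WT_CD4 2 with all barcodes. Both calls ended when mixed barcodes were kept (adjusted p = 0.15 each), and the S100a9 call ended with DESeq2 (adjusted p = 0.39). The S100a8 call ended with the robust prior (adjusted p = 0.065), and its value turned to -2.40 with classes set from marker UMIs, itself past the threshold (adjusted p = 0.00032).

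In the CD45 libraries, with 1 Lag3KO library, 4 calls were made over 8 classes. Monocytes (0.585% of genes) had S100a8 at 409.5, 341.6 and 1332 CPM and S100a9 at 144.7, 55.5 and 515.5 CPM in WT_CD45 1, the library labelled WT_CD45 2 and Lag3KO_CD45 1. The differences were 1.81 ± 0.16 (adjusted p = 1e-12) and 2.33 ± 0.22 (adjusted p = 3.4e-11). In Lag3KO_CD45 1 the top 5 of 469 barcodes held 75.0% of the S100a8 UMIs, and after thinning 12.2% of its monocytes had an S100a8 UMI, against 12.2% for WT_CD45 1 and 4.7% for the library labelled WT_CD45 2. The S100a9 call ended with DESeq2 and with the robust prior (adjusted p = 1.0 in each), and with classes from marker UMIs both did (adjusted p = 0.29 and 0.42). Migratory dendritic cells (0.793% of genes) had S100a4 (-0.84 ± 0.20, adjusted p = 0.011) and S100a6 (-0.74 ± 0.19, adjusted p = 0.024) lower in Lag3KO, with S100a6 at 1082 and 1383 CPM in WT_CD45 1 and the library labelled WT_CD45 2 and 769.0 CPM in Lag3KO_CD45 1. Neither call held with DESeq2 (adjusted p = 1.0 each). The S100a6 call ended with mixed barcodes kept (adjusted p = 0.42) and with no filter on low counts (adjusted p = 0.13), and neither held with classes from marker UMIs (adjusted p = 0.44 and 0.45). No member was called in macrophages (0.276% of genes), cDC1 (0.0744%), cDC2 (0.336%), plasmacytoid dendritic cells (0.675%), B cells (0.273%) or the Cd8a and Cd8b1 cluster (0.496%), where 508, 234, 498, 296, 110 and 64 genes had p under 0.05 unadjusted.

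Members were compared across the 51 sums of 20 classes and clusters in the CD45 libraries, on log2(CPM + 1). Pearson's r was 0.94 between S100a8 and S100a9, and -0.24 to 0.12 between either of these and the other members. Among S100a4, S100a6, S100a10 and S100a13 every r lay between 0.65 and 0.86. It was highest between S100a4 and S100a6 (0.86) and between S100a10 and S100a13 (0.82). S100a11 was at 0.67 with S100a4 and with S100a6, 0.36 with S100a10 and 0.26 with S100a13. Sums of 1 library share its depth and free RNA, so these are descriptions. Neutrophils had fewer than 20 barcodes in each of these libraries and were not among the sums. The Elane cluster was, with most of its S100a8 UMIs in a few barcodes. Of 6116 other genes, those most like S100a8 were Lcn2 (r = 0.87), Lrg1, Wfdc21, Cebpe and Lbp, and those most like S100a9 were Lcn2 (0.83), Ngp, Cebpe, Wfdc21 and Elane. S100a4 was most like Cish, Myl6, Myl12a, Rap1b and Lfng (0.79 to 0.83), and S100a6 like Ltb4r1, Fxyd5, Dok2, Rap1b and Arf5 (0.75 to 0.77). S100a10 was most like Dok2, Gmfg, Tmem71, Kcnab2 and Ptpn7 (0.84 to 0.86), S100a11 like Cdc42, Crip1, Tspo, Arpc2 and Anxa2 (0.75 to 0.83), and S100a13 like Abhd8, Tnik, Thy1, Lat and Cd3e (0.89 to 0.91).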

How the data were processed

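Single-cell 3' RNA libraries (Chromium v2) were made from bead-enriched CNS leukocytes, 7 libraries in 4 groups. The authors deposited UMI counts per gene and barcode, not normalized; per the submitters' processing notes Cell Ranger and Seurat were used with GRCm38 (mm10), and their versions are not given in these sources. Groups came from the labels. Barcodes with at least 200 genes and at most 10% mitochondrial UMIs were kept, 221 of 13922 barcodes were removed as doublets (simulated doublets, 0.8% expected per 1000 barcodes), and 13411 remained. Each sort was clustered (Python 3.11.15, scikit-learn 1.9.0, leidenalg 0.10.2; 2000 variable genes without S100 genes, 30 components, 15 neighbours, resolution 1.0), and clusters were named from marker lists. Barcodes with T cell and myeloid RNA together were set apart as mixed.

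For each class, the UMIs of a library with at least 20 of its barcodes were summed and tested with edgeR 4.0.16 (R 4.3.3; quasi-likelihood, TMM, filterByExpr, Benjamini-Hochberg over all genes at 0.05). Class comparisons carried the library as a term; clusters and tests use the same cells. DESeq2 1.42.0, other size factors, no filter, classes from marker UMIs, S100 genes kept in clustering, mixed barcodes kept and each library left out were alternatives. edgeR's robust prior was run first, and the default prior, which the design names, was taken for the reported values after the robust values had been seen; both are given where a call differs. Fits within 1 sort, of differences between sorts and of genotype in myeloid classes of the CD4 libraries were added after the data were seen. Neutrophils were compared with macrophages of the CD4 libraries because too few neutrophils of the CD45 libraries remained for the intended comparison with monocytes. Genotype in CD45 classes has 1 residual degree of freedom. The members and all lists were chosen with earlier results of these data known. The named genes are the 7 members, a list of S100 partners of which those called are given, and the 5 genes most like each member. Shares were thinned to 1000 UMIs per barcode, barcodes with fewer UMIs were left out, and intervals cover counting error only. On simulated counts for Tregs over both sorts (7263 genes), 12 of 67 genes changed 1.5-fold, 38 of 67 changed 2-fold and 58 of 66 changed 4-fold were recovered, with 2 false calls among 110. For effector minus resting Tconv in the CD4 libraries (7660 genes) 13, 42 and 55 were recovered, with 2 false among 112, and for cDC2 minus monocytes (6963 genes) 26, 52 and 60, with 13 false among 151 (8.61%). The simulated counts had 1 mean per gene over all sums, apart from depth and the planted folds. They held no other differences between classes, sorts or libraries, so these rates describe that setting and not the fits to the real sums. Reads of S100a11 could be shared with a processed copy elsewhere in the genome, which the counts cannot separate.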

Additional observations from a re-analysis of the deposited data

Results flagged for a closer look

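Effector Tconv were compared with resting Tconv in the CD4 libraries and with the Ramp3 cluster, which took their place, in the CD45 libraries, and the difference was not the same in both for 5 members. On the log2 scale, as CD45 minus CD4, it was -2.711 for S100a4, -2.377 for S100a6, -2.04 for S100a10, -1.196 for S100a13 and -0.7836 for S100a11, each by a test of the difference itself (edgeR, adjusted p at most 7.8e-05). The difference between Tregs and effector Tconv differed between sorts for S100a6 (1.031) and S100a10 (1.285). The Ramp3 cluster held 24, 41 and 31 barcodes in the CD45 libraries and was led by other genes than resting Tconv of the CD4 libraries. Effector Tconv were a Ccl1 cluster alone in the CD45 libraries, and a Ccl1 cluster joined with an Ifitm2 and Cxcr6 cluster in the CD4 libraries. Both contrasts therefore set unlike cells side by side. The part of this in the difference was not tested.

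Outside the 7 members, S100a1 was the S100 gene with the most UMIs, 3702 over all libraries and 45 to 1245 in a library, and its highest class level was 121.4 CPM in macrophages. It lies beside S100a13 on the opposite strand. S100a3 had 209 UMIs, S100b 93, S100a5 52, S100a2 26, S100a16 19, S100z 7, S100a7a 5, S100a14 1 and S100g 0.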

How the results depend on the processing

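Of 79 calls of a member in a comparison, 51 held under every alternative that gave a value and 28 were lost or turned sign under at least 1. Size factors of DESeq2 in edgeR lost 0 of 79, fits of only the 2 classes compared 0 of 66, no filter 2 of 79, S100 genes kept in clustering 4 of 71, mixed barcodes kept 6 of 79, the robust prior 7 of 79, DESeq2 8 of 79 and classes from marker UMIs 21 of 71, of which 5 turned sign and 2 of those passed the threshold in the opposite direction. The 5 were S100a8 in microglia minus macrophages (0.3819) and in genotype of macrophages (-2.402, adjusted p = 0.00032) of the CD4 libraries, S100a11 in Tregs minus resting Tconv (-0.06274) and S100a8 in Tregs minus effector Tconv (4.728, adjusted p = 1.4e-07) there, and S100a10 in Tregs minus effector Tconv of the CD45 libraries (-0.05686). The causes were not tested. In the CD45 libraries and over both sorts, "resting Tconv" here includes the Ramp3 cluster.

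Counts of members called moved as follows. With no filter, genotype in Tconv went from 0 to 2 over both sorts and in the CD4 libraries and to 1 for the difference between sorts, effector minus resting Tconv over 7 libraries from 2 to 4, Tregs minus resting Tconv from 1 to 3 and Tregs minus effector Tconv from 1 to 5. With classes from marker UMIs, these 3 subset counts were 6, 2 and 4, Tregs minus resting Tconv in the CD4 libraries went from 5 to 2, and genotype in the other CD45 classes (from 4), Tregs minus effector Tconv in the CD45 libraries (from 2) and its difference between sorts (from 2) went to 0. With DESeq2, genotype in the other CD45 classes went from 4 to 1, effector minus resting Tconv in the CD45 libraries from 2 to 1 and genotype in macrophages of the CD4 libraries from 2 to 1. With S100 genes kept in clustering, Tregs minus resting Tconv was 0 over 7 libraries and 3 in the CD4 libraries, and genotype in macrophages 1; no CD45 Treg sum remained. With mixed barcodes kept, Tregs minus resting and minus effector Tconv were 2 each, genotype in neutrophils 1 and in macrophages 0. With the robust prior, Tregs minus resting Tconv was 0 and genotype in macrophages 1. With only the classes compared, Tregs minus resting Tconv was 2 and minus effector Tconv 5. Leaving out 1 library at a time gave 0 to 1 for Tregs minus resting Tconv and 1 to 3 for Tregs minus effector Tconv over 7 libraries, 1 for effector minus resting Tconv in the CD45 libraries and 3 to 4 for Tregs minus resting Tconv in the CD4 libraries; the other counts stayed within 1.5 times.

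No paired analysis was possible because the labels give the libraries no shared replicate numbers. Neutrophils minus monocytes, NK minus CD8 T cells and genotype in neutrophils, NK cells and microglia of the CD45 libraries could not be fitted with at least 20 barcodes in each library, and genotype in the other CD45 classes leaves no residual degree of freedom without 1 library. Under classes from marker UMIs 32 of 91 levels moved by 1 SD or more, and 21 of 48 shares thinned to 2000 UMIs lay outside the interval at 1000. A share of barcodes with a UMI rises with the number of UMIs drawn, and barcodes under 2000 UMIs were left out. The count of shares therefore cannot show how well they hold. Depth limits S100a4 and S100a10 in neutrophils and most members in microglia of the CD4 libraries to a few UMIs per library.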
